A study of Mus musculus with 96 samples.

Results

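The genes described here are 9 of the 36935 gene symbols in a table of RNA counts from single mouse oocytes and single cells of 2-cell embryos. They were chosen by name as genes of the cumulus matrix and of cell adhesion: Vcan, Has2, Tnfaip6, Ptx3, Thbs1, Col4a1, Col4a2, Timp1 and Serpine2. All 9 were found in the table. The question was which of them are RNAs of the oocyte and which come with RNA of the somatic cells around it.

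The series set mice carrying the Padi6 change P620A beside wild-type mice. The labels give 22 libraries to metaphase II (MII) oocytes of genotype Padi6+/+, 22 to oocytes of Padi6P620A/P620A, 22 to 2-cell blastomeres of Padi6+/+, and 22 to 2-cell blastomeres of Padi6MatP620A/+, whose mother carried the variant. A further 8 are labelled negative control. Females were 4 to 8 weeks old and males 8 to 12 weeks. All females received pregnant mare serum gonadotropin (PMSG) and, 52 hours later, human chorionic gonadotropin (hCG), and eggs were taken 13 hours after hCG. Cumulus cells were loosened with hyaluronidase, and 2-cell embryos came from in vitro fertilisation, with the zona and the polar body taken away before single blastomeres were picked. The labels name no animal, so a library is a cell and not a replicate animal.

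Levels are given as CPM, the counts of a gene per 1000000 gene counts of its library. Stage labels were not used. Of 96 libraries, 85 held at least 100000 counts, and these fell into 3 classes by their own RNA. The 40 oocyte-like libraries had Mos, the kinase that holds the egg in metaphase, at 100 CPM or more. The 41 2-cell-like libraries had Mos below 100 CPM and at least 1 count of Zfp352, a gene switched on in the 2-cell embryo. The other 4 had Gdf9, an oocyte growth factor, below 20 CPM. These classes are made from the data and are not groups of the study. The oocyte-like class held 12 libraries labelled wild-type MII, 15 labelled wild-type 2-cell, 9 labelled mutant 2-cell and 4 labelled negative control. The 2-cell-like class held 8 labelled wild-type MII, 20 labelled mutant MII, 11 labelled mutant 2-cell and 2 labelled negative control.

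The egg of a large follicle is wrapped in cumulus cells, a kind of granulosa cell. After the ovulatory surge these cells spin a soft gel of hyaluronan around the egg, which the enzyme Has2 makes and which versican (Vcan), the protein Tnfaip6 and the pentraxin Ptx3 bind and crosslink. The egg helps to trigger this with its own factors, Gdf9 among them. Adhesion and basement membrane proteins (Thbs1, Col4a1, Col4a2) and inhibitors that hold proteases in check (Timp1, Serpine2) belong to the same ovarian matrix.

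The starts of the genes are shown first for the members that the results turn on. Of the 9 members, 7 matched the RefSeq promoter table (build GRCm38.p6), which spans 250 bases before to 50 after the first transcribed base, and Has2 and Thbs1 did not match. Col4a1 and Col4a2 are printed because they lie head to head on chromosome 8. The Col4a1 window is chr8:11312777-11313076 on the minus strand and the Col4a2 window chr8:11312555-11312854 on the plus strand. Their starts are 21 bases apart, and capitals mark the 78 bases that both windows hold, as reverse complements of each other.
Col4a1: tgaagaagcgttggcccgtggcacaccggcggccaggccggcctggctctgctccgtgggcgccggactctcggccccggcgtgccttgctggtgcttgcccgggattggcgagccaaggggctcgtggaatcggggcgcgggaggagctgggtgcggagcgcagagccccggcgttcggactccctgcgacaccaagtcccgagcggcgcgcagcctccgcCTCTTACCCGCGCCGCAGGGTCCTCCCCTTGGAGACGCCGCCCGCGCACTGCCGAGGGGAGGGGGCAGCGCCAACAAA
Col4a2: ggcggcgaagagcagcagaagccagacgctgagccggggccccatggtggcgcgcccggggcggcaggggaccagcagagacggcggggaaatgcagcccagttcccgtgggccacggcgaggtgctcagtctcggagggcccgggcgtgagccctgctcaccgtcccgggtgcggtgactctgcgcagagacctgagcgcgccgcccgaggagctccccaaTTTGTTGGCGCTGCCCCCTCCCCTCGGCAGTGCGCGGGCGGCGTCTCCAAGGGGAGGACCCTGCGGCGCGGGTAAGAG

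Serpine2 (chr1:79858616-79858915, minus strand) is shown as the member found in every oocyte-like library. Vcan (chr13:89742463-89742762, minus strand), Tnfaip6 (chr2:52037863-52038162, plus strand) and Timp1 (chrX:20869916-20870215, plus strand) are shown because their levels moved together. Capitals mark matches, on either strand, to the GC box GGGCGG, the CCAAT box CCAAT, the AP-1 element TGACTCA, the cAMP response element TGACGTCA and the TATA box TATAAA.
Serpine2: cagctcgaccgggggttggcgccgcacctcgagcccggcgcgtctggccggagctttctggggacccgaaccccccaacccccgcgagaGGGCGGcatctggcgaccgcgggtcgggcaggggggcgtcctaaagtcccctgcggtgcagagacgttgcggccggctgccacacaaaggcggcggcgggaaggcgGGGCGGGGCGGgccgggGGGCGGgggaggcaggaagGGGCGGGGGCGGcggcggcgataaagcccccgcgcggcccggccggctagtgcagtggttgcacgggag
Vcan: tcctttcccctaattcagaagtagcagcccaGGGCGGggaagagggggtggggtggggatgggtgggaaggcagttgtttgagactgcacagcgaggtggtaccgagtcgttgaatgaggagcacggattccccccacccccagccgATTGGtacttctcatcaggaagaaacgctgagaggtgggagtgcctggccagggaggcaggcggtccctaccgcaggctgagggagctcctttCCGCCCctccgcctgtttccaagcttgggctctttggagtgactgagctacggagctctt
Tnfaip6: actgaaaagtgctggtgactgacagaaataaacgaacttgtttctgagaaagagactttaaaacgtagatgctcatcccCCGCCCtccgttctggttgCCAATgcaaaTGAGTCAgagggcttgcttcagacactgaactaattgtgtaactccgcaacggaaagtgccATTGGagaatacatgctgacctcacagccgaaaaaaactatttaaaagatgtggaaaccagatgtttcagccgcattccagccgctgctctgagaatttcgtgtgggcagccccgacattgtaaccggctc
Timp1: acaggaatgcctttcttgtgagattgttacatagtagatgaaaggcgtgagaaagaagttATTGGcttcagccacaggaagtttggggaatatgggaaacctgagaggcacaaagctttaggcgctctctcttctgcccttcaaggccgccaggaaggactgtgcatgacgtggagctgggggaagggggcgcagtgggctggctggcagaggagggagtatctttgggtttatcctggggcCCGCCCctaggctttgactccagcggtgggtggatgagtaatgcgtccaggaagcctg

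The Serpine2 window held 6 GC boxes, 2 of which overlap, and none of the other 4 motifs. Vcan held 2 GC boxes and 1 CCAAT box, Timp1 held 1 of each, and Tnfaip6 held 1 GC box, 2 CCAAT boxes and 1 AP-1 element. Col4a1 held 1 GC box and 1 CCAAT box, and Col4a2 held 3 and 1. Ptx3 held no match to any of the 5. Among 32851 promoter windows of this length, 35.7% held a GC box, 37.4% a CCAAT box, 5.20% the AP-1 element, 1.79% the cAMP response element and 13.6% the TATA box. G and C made up 77.7% of the Serpine2 window, 74.0% of the Col4a1 window and 73.7% of the Col4a2 window, against a median of 52.7% over all windows. It was 61.0% for Vcan, 55.0% for Timp1, 54.7% for Ptx3 and 47.0% for Tnfaip6. A match is a string of letters and not evidence that a factor binds there.

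Some facts of the whole set bear on what follows. Total counts ran from 162539 to 5762563 in the oocyte-like class, from 503644 to 3185910 in the 2-cell-like class and from 167079 to 2374644 in the 4 libraries low in Gdf9. A list of 11 granulosa and cumulus markers that holds no member, summed per library, gave 43.1 to 7716 CPM (median 274) in the oocyte-like class and 0 to 169 CPM (median 43.0) in the 2-cell-like class. Its steroid enzyme Hsd3b1 stood at 522 CPM in the oocyte-like pool and at 0.0293 CPM, or 2 counts, in the 2-cell-like pool. Hsd17b1 and Foxl2 had no count in the 2-cell-like pool, while Cyp19a1 (19.7 CPM) and Nr5a2 (20.1 CPM) did, so those 2 are not markers of somatic RNA alone here. In the oocyte-like class Cyp19a1 was pooled at 67.2 CPM and had a Spearman rho of -0.150 with the sum that holds it. For Hsd3b1 that rho was 0.974. In the pool of the 4 libraries low in Gdf9 Cyp19a1 stood at 0.277 CPM. Where the sum is low it is thus not a measure of granulosa RNA alone. The oviduct list summed to 243 to 11751 CPM in the oocyte-like class, the stroma list to 14.8 to 180 CPM and the leukocyte list to 0 to 422 CPM. Over the 40 libraries the granulosa sum ranked with the oviduct sum (Spearman rho 0.571) and the leukocyte sum (0.509), less with the stroma sum (0.106). More somatic cells and more RNA per somatic cell cannot be told apart in these sums. Library 61, labelled wild-type 2-cell, had the most granulosa RNA of all and moves several results, which are given with and without it.

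Serpine2, a secreted inhibitor of thrombin, urokinase and other serine proteases, was an abundant RNA of every oocyte-like library. Its level there ran from 277 to 2015 CPM with a median of 709 CPM over 40 libraries. In the 2-cell-like class it ran from 0 to 263 CPM with a median of 51.0 CPM, and 7 of 41 libraries had no count. All 40 oocyte-like libraries lay above all 41 2-cell-like ones, so the classes did not overlap. The share of all genes that part the classes in this way was not computed. Of all genes compared, 28.4% were at least 2-fold lower in the 2-cell-like class. The pooled level, the summed counts over the summed totals, was 790 CPM (95% counting interval 785 to 796) against 60.4 CPM (58.6 to 62.3), which is 13.1-fold lower (12.7 to 13.5) in the 2-cell-like class. Leaving out any 1 library gave 12.2- to 14.2-fold. Every interval here covers counting error only: the reads passed through PCR and carry no molecular identifier, so they are not separate molecules.

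Serpine2 was also present where granulosa RNA was lowest. In the 10 oocyte-like libraries with the lowest granulosa sum (43.1 to 123 CPM, the low-granulosa libraries below) it ran from 277 to 720 CPM, median 575 CPM. In the 10 with the highest sum (1253 to 7716 CPM, the high-granulosa libraries) it ran from 687 to 2015 CPM, median 934 CPM. The levels in the latter were thus shifted upward on a base already high, with 9 of 10 above all the low-granulosa libraries. Pooled, they stood 1.86-fold higher. In the 5 oocyte-like libraries without a single Hsd3b1 count, a subset taken after the values were seen, Serpine2 was 277 to 708 CPM. The 277 CPM, here and above, belong to library 64. It had the highest oviduct sum of the class (11751 CPM) and the fewest genes detected (3671), so a lack of Hsd3b1 is not a lack of all somatic RNA. The next lowest oocyte-like library, 92, had 475 CPM. Across the 40 libraries its level ranked with the granulosa sum at a Spearman rho of 0.725, or 0.474 when counts were scaled by DESeq2 size factors.

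**Figure D1:**
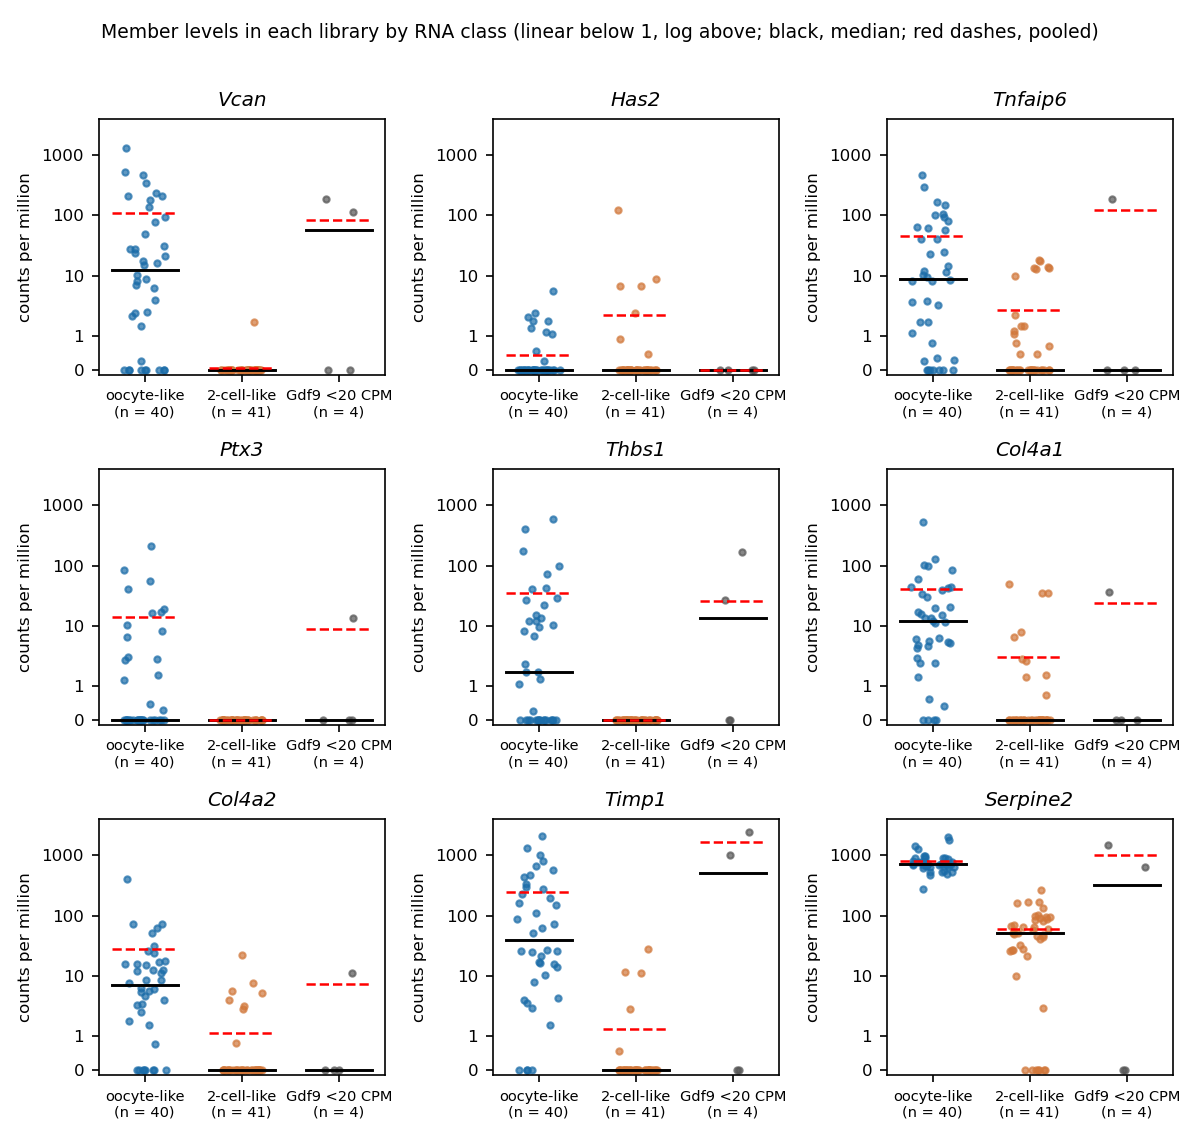
Level of each member in each library (points; CPM, linear below 1 and log above) for 40 oocyte-like, 41 2-cell-like and 4 libraries with Gdf9 below 20 CPM; black lines are medians and red dashes pooled levels. Serpine2 lies between 277 and 2015 CPM in the oocyte-like class, above every 2-cell-like library, while the other members spread from 0 upward.

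Vcan encodes versican, the large proteoglycan that binds hyaluronan in the expanded cumulus. In the oocyte-like class it ran from 0 to 1323 CPM, median 12.7 CPM, with a count in 31 of 40 libraries. Of the 41 2-cell-like libraries, 40 had no count. The exception was library 3 with 3 counts, and the pooled level was 2469-fold lower there (845 to 11973), or 1329-fold without library 61. The log2 ratio was -11.27, and -7.11 after thinning every library to 100000 counts, where no 2-cell-like library kept a count and the floor of 3 counts applied. Pooled oocyte-like Vcan was 109 CPM (107 to 110), or 58.4 CPM without library 61.

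Unlike Serpine2, Vcan was nearly absent where granulosa RNA was lowest. The low-granulosa libraries had 0 to 8.33 CPM, median 0, with a count in 3 of 10 libraries. The high-granulosa libraries had 49.4 to 1323 CPM, median 224 CPM, and all 10 lay above every low-granulosa one. The share of all genes for which these sets lie apart in this way was not computed, for Vcan or for any other member. Vcan ranked with the granulosa sum at rho 0.876 (0.866 without library 61), higher than 99.3% of the genes with enough signal to be ranked.

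Tnfaip6, which moves heavy chains onto hyaluronan and so crosslinks the gel, ran from 0 to 464 CPM in the oocyte-like class (median 8.98 CPM, a count in 33 of 40 libraries). It ran from 0 to 18.4 CPM in the 2-cell-like class, with a count in 16 of 41. The ranges overlapped, and 15 oocyte-like libraries lay above all the 2-cell-like ones. Pooled levels were 45.7 CPM (44.5 to 47.0) and 2.74 CPM (2.36 to 3.16), 16.7-fold lower (14.4 to 19.4), or 10.4-fold without library 61.

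Within the oocyte-like class Tnfaip6 was 0 to 24.6 CPM in the low-granulosa libraries, median 0.129 CPM. The high-granulosa libraries had 40.8 to 464 CPM, median 104 CPM, and again all 10 lay above every low-granulosa one. The rho with the granulosa sum was 0.835. The 24.6 CPM belong to library 95, labelled negative control, the smallest oocyte-like library at 162539 counts.

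Timp1, an inhibitor of matrix metalloproteinases made by ovarian somatic cells, ran from 0 to 2047 CPM in the oocyte-like class, median 38.8 CPM, with a count in 36 of 40 libraries. Of the 2-cell-like libraries 5 of 41 had a count and the highest was 28.2 CPM. The pooled level was 249 CPM (247 to 252) against 1.32 CPM (1.06 to 1.62), 189-fold lower (154 to 235). Without library 36, which holds 61 of the 90 2-cell-like counts, it was 568-fold lower.

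Timp1 ranked with granulosa RNA at rho 0.884, close to the value of Vcan. It was 0 to 26.9 CPM in the low-granulosa libraries (median 2.60 CPM, a count in 6 of 10) and 275 to 2047 CPM in the high-granulosa ones (median 622 CPM). These 2 sets did not overlap.

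Ptx3, the pentraxin that holds the heavy chains of the gel together, was found in 17 of 40 oocyte-like libraries, at 0 to 210 CPM with a median of 0. None of the 41 2-cell-like libraries held a count, and a floor of 3 counts over the class is a pooled level of 0.0440 CPM. The pooled oocyte-like level was 14.1 CPM (13.4 to 14.8), so the 2-cell-like level was at least 321-fold lower by that floor, or at least 137-fold without library 61. After thinning every library to 100000 counts the floor is higher, and the log2 ratio was -3.91 in place of -8.33. Of the low-granulosa libraries 1 of 10 had a count and of the high-granulosa ones 7 of 10, with medians of 0 and 5.49 CPM. The rho with the granulosa sum was 0.601, and 0.417 after thinning.

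Has2, the enzyme that makes hyaluronan, was scarcely detected in any class. It had 51 counts in 10 of 40 oocyte-like libraries, at most 5.59 CPM (library 60), and 0 counts in the libraries low in Gdf9. In the 2-cell-like class 7 of 41 libraries held 155 counts, of which 105 came from library 33, labelled mutant MII, at 121 CPM. The pooled level was 2.27 CPM against 0.454 CPM, 5.00-fold higher in the 2-cell-like class (3.62 to 7.00), but 1.63-fold without library 33. Unlike the other 8 members it did not rank with granulosa RNA (rho 0.0448). The exons of Has2 overlap those of its antisense partner Has2os in GENCODE M21, and without strand the reads of the pair cannot be told apart.

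Thbs1, the adhesive glycoprotein thrombospondin 1, ran from 0 to 590 CPM in the oocyte-like class with a median of 1.73 CPM and a count in 24 of 40 libraries. No 2-cell-like library had a count, so by the same floor of 3 counts its pooled level there was at least 812-fold lower than 35.7 CPM (34.6 to 36.8), or at least 292-fold without library 61. The log2 ratio was -9.67, and -5.80 after thinning. The low- and high-granulosa libraries overlapped because of 1 library. Library 95 had 400 CPM at the lowest granulosa sum of all, while the other 9 low-granulosa libraries were at 0 to 1.71 CPM, and the high-granulosa ones ran from 6.80 to 590 CPM. The rho with the granulosa sum was 0.615. Its exons overlap Gm29233 on the other strand.

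Col4a1 and Col4a2 encode the paired chains of the main collagen of basement membranes. In the oocyte-like class Col4a1 ran from 0 to 536 CPM (median 11.9 CPM, 36 of 40 libraries) and Col4a2 from 0 to 398 CPM (median 7.04 CPM, 32 of 40). In the 2-cell-like class Col4a1 had a count in 10 of 41 libraries, at most 48.7 CPM in library 48, and Col4a2 in 8 of 41, at most 22.1 CPM in library 26. The ranges overlapped for both genes. Col4a1 was pooled at 41.4 CPM (40.2 to 42.6) against 3.08 CPM (2.67 to 3.52), 13.4-fold lower (11.7 to 15.5), or 6.81-fold without library 61. Col4a2 was pooled at 28.3 CPM (27.4 to 29.3) against 1.13 CPM (0.890 to 1.41), 25.1-fold lower (20.0 to 31.9). That fold was 11.6 without library 61 and 46.0 without library 26.

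Col4a1 kept a low level where granulosa RNA was lowest. It had a count in 7 of 10 low-granulosa libraries, at 0 to 33.7 CPM (median 5.96 CPM), and stood at 30.0 to 536 CPM in the high-granulosa ones (median 71.6 CPM). Of the latter, 9 of 10 lay above every low-granulosa library. Col4a2 had a count in 5 of 10 and in 9 of 10, with medians of 0.393 and 41.5 CPM. The rho with the granulosa sum was 0.646 for Col4a1 and 0.652 for Col4a2, and that of the pair with each other 0.477. The exons of both overlap at the shared start, so reads there may be split between them, and Col4a2 also overlaps Gm15419.

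**Figure D2:**
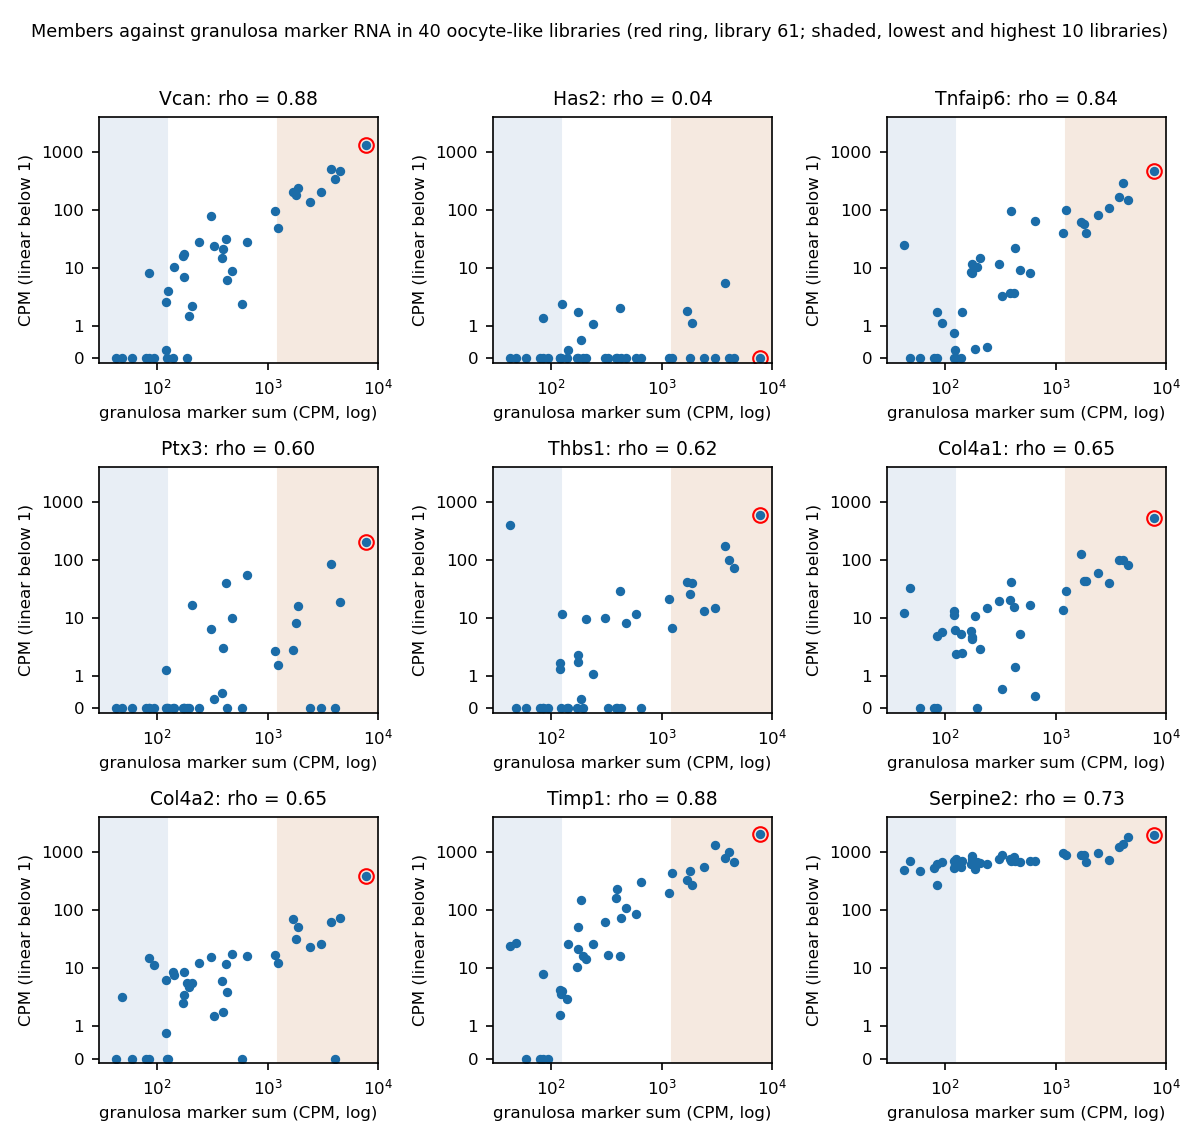
Level of each member (CPM, linear below 1 and log above) against the summed granulosa markers (CPM, log axis) in the 40 oocyte-like libraries; shading marks the lowest and the highest 10 libraries and the ring library 61. Vcan, Tnfaip6 and Timp1 climb from near 0, Serpine2 starts at 277 CPM, and Has2 shows no trend.

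Set side by side, 8 of the 9 members had a rho of at least 0.5 with the granulosa sum in the oocyte-like class, all but Has2. Over all genes past the filter (at least 10 CPM pooled and a count in at least 50% of the libraries) the share was 21.3%, and the median rho was 0.000375. Ptx3 and Has2 did not pass that filter. These are descriptions over libraries that share a plate, amplification and depth differences. The members also ranked with the number of genes detected, at rho 0.331 (Tnfaip6) to 0.697 (Col4a2), and with the oviduct sum, at 0.105 (Has2) to 0.674 (Col4a2). For Col4a2 both values lie above its rho of 0.652 with the granulosa sum. With the leukocyte sum the members ranked at 0.149 (Has2) to 0.600 (Col4a2). Ranking with the total count was weak, at -0.228 (Thbs1) to 0.0715 (Has2). The part of oviduct RNA, of leukocyte RNA and of detected gene number in the relation with granulosa RNA was not tested. In the 2-cell-like class Serpine2 was the one member past the filter and had a rho of 0.196, where 0.613% of genes reached 0.5. Ptx3 and Thbs1 had no count there and so no rho.

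**Figure D3:**
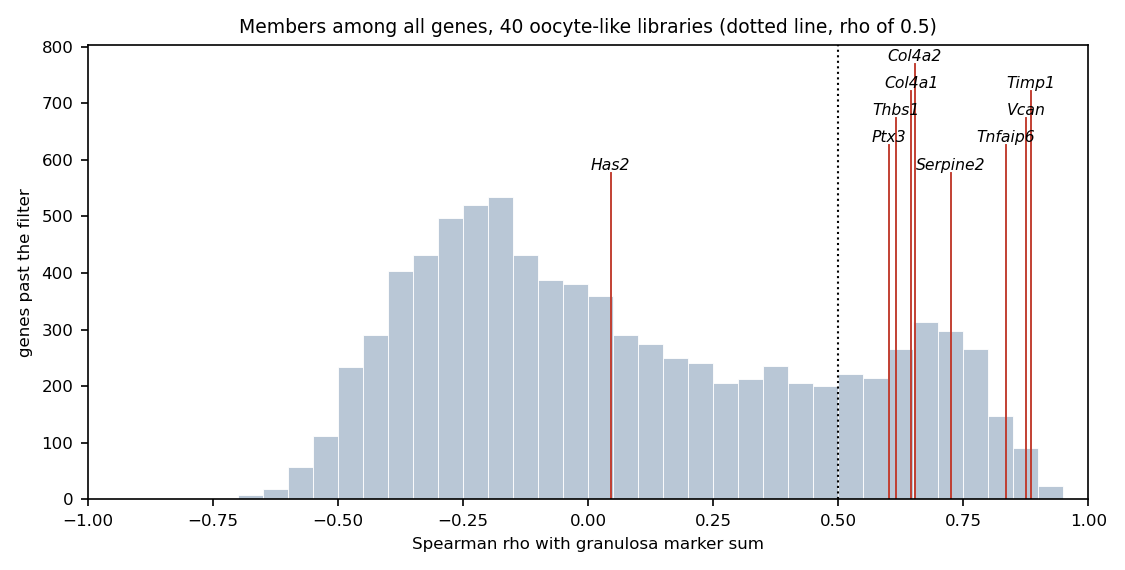
Number of genes past the filter (bars) by their Spearman rho with the granulosa marker sum over 40 oocyte-like libraries, with the 9 members drawn as red lines; Ptx3 and Has2 did not pass the filter. Vcan, Timp1 and Tnfaip6 lie at the right end at 0.835 to 0.884, and Has2 near the middle.

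Between classes, 7 members passed the filter for the comparison, and all 7 were at least 2-fold lower in the 2-cell-like class. Of all genes compared, 28.4% were lower by 2-fold or more and 20.4% higher. Since a member could pass through its high class alone, the count of 7 is a description. Ptx3 was also lower but had counts in too few libraries to pass, and Has2 was higher.

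Levels of different genes can be compared only per length of their exons. The length used was the union of all exons annotated for a gene, 8287 bases for Serpine2 and 888 for Timp1. Lengths of single transcripts were not tried, and the order below may depend on that choice. Per kilobase, the median oocyte-like level was highest for Serpine2 at 85.6 CPM, followed by Timp1 at 43.7 CPM and Tnfaip6 at 5.25 CPM. Col4a1 (1.60 CPM per kilobase), Col4a2 (1.06), Vcan (0.880) and Thbs1 (0.285) followed, and Ptx3 and Has2 had a median of 0. The ranges over libraries overlapped between all neighbours in this order. By pooled level per kilobase Timp1 came first, at 281 CPM, with Serpine2 at 95.4 CPM.

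Among themselves, the members fell into a close group and looser ones. Tnfaip6 and Timp1 ranked together at rho 0.852, Vcan and Timp1 at 0.807, Vcan and Tnfaip6 at 0.797 and Vcan and Serpine2 at 0.791. Leaving out library 61 gave 0.841, 0.792, 0.781 and 0.775. Has2 ranked with no other member above 0.244. Between the other 8, the lowest value was 0.411, for Ptx3 and Col4a1.

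**Figure D4:**
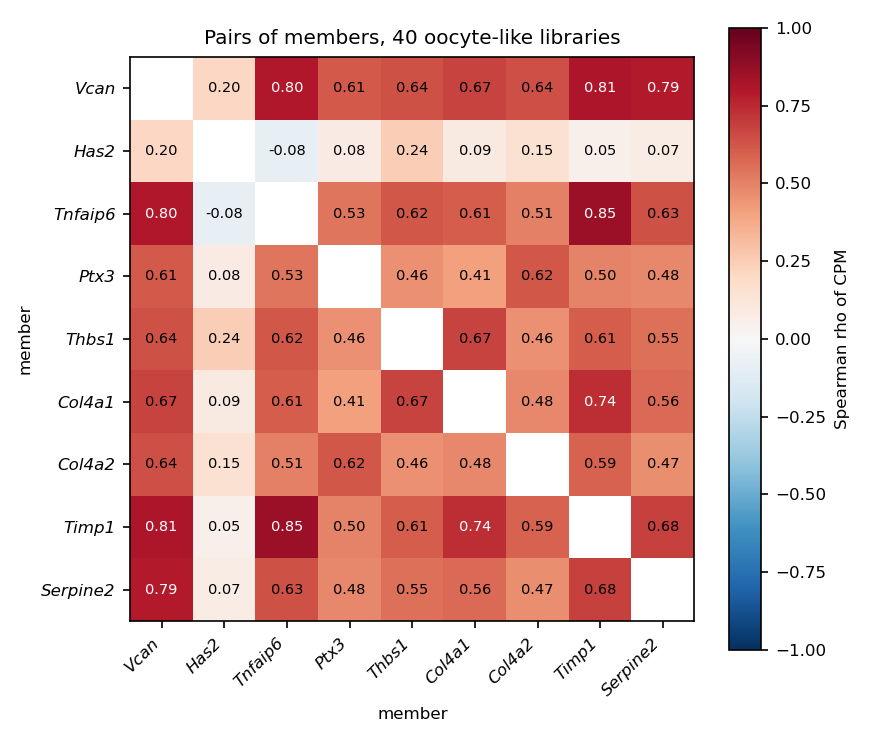
Spearman rho of CPM for each pair of members over 40 oocyte-like libraries (colour and number). Vcan, Tnfaip6 and Timp1 form the darkest block, at 0.797 to 0.852, and the Has2 row is pale.

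For each member with a count in at least 50% of the oocyte-like libraries, the 3 genes most alike in rank were taken from 8625 genes. Timp1 was most like H2-Q10 (rho 0.943), Gm42793 (0.942) and Asgr1 (0.938). Tnfaip6 was most like Grem1 (0.927), an antagonist of bone morphogenetic proteins, then Htra1 (0.918), a secreted serine protease, and Gm42793 (0.908). Vcan was most like the early-response gene Ier2 (0.893), the kinase Sgk1 (0.884) and the fatty acid elongase Elovl6 (0.881). Serpine2 was most like Fkbp10 (0.801), which helps fold collagen, the iron exporter Slc40a1 (0.796) and Sccpdh (0.793). Thbs1 was most like Slc27a1 (0.860), Slc7a8 (0.790) and the collagen crosslinker Lox (0.768). Col4a1 was most like Pip4p1 (0.866) and Col4a2 most like Mpdu1 (0.850).

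Counts were then set against granulosa marker counts, since genes from a single source keep 1 ratio. The low- and high-granulosa libraries were chosen by the sum of these same markers, with which Hsd3b1 ranked at rho 0.974. A gene that does not vary with the sum thus has a higher ratio in the low-granulosa libraries by that choice alone. The ratios below are descriptions and cannot decide whether a member has a single source. In the high-granulosa libraries there were 12.7 Vcan counts (12.4 to 12.9), 4.86 Tnfaip6 counts (4.71 to 5.01) and 26.7 Timp1 counts (26.4 to 27.1) per 100 granulosa marker counts. In the low-granulosa libraries these were 2.25 (1.69 to 2.94), 0.899 (0.562 to 1.36) and 6.99 (5.95 to 8.16). Serpine2 had 34.4 (33.9 to 34.8) in the high-granulosa libraries and 667 (639 to 697) in the low-granulosa ones. Col4a1 had 4.38 (4.24 to 4.53) and 10.9 (9.54 to 12.3), and Col4a2 3.04 and 3.02. In the low-granulosa libraries Hsd3b1 made up 156 of the 2447 granulosa marker counts, so the ratios depend on the denominator. Per 100 Hsd3b1 counts these 6 members were higher in the low-granulosa libraries than in the high-granulosa ones. Vcan was 35.3 against 22.7, Tnfaip6 14.1 against 8.69 and Timp1 110 against 47.8. Col4a1 was 171 against 7.84, Col4a2 47.4 against 5.44 and Serpine2 10467 against 61.4. Of the remaining members Thbs1 was also higher (47.4 against 7.47), with 65 of its 74 low-granulosa counts from library 95. Has2 was higher too (5.13 against 0.0485, from 8 low-granulosa counts, all in library 24). Ptx3 was lower, at 1.92 against 2.54, from 3 low-granulosa counts. For Vcan, Tnfaip6 and Timp1 the direction thus turned with the denominator, and for Serpine2 and Col4a1 it did not. That turn rests on few libraries. Library 24 held 48 of the 55 low-granulosa Vcan counts and 10 of the 22 Tnfaip6 counts. Library 20 held 91 of the 171 Timp1 counts. Whether the direction turns without these libraries was not tested.

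**Figure D5:**
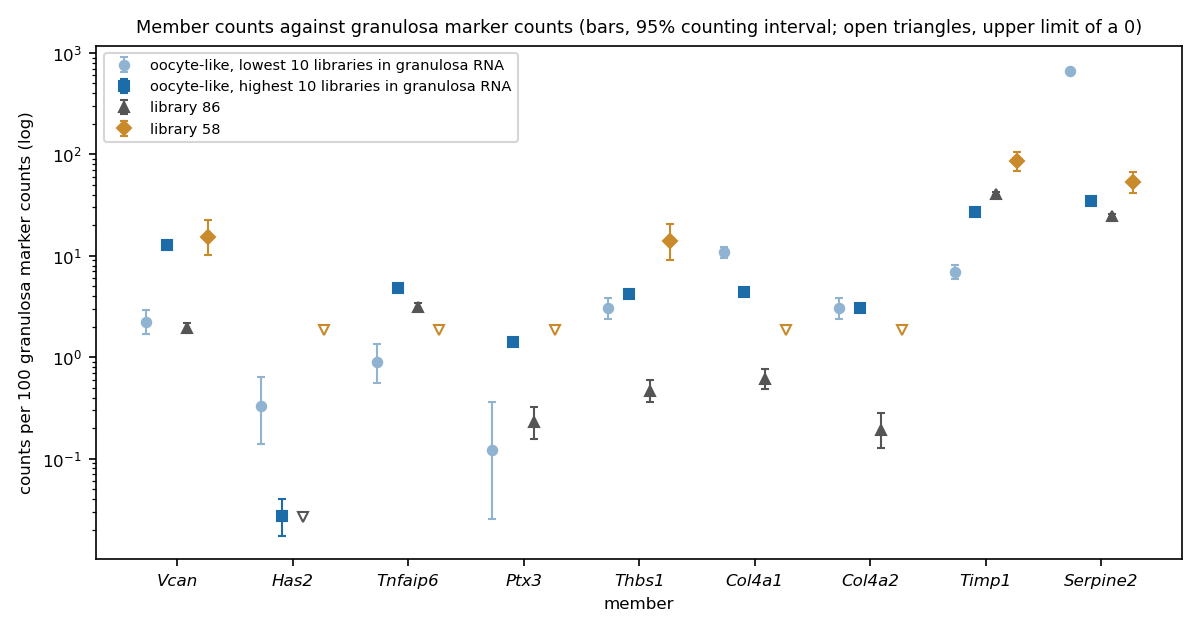
Counts of each member per 100 granulosa marker counts (log axis) in the 10 low- and the 10 high-granulosa libraries of the oocyte-like class and in libraries 86 and 58; bars are 95% counting intervals and open triangles the upper limit of a count of 0. Serpine2 stands at 667 in the low-granulosa libraries against 34.4 in the high-granulosa ones, and library 86 lies below the latter for every member shown with a count except Timp1.

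The 4 libraries with Gdf9 below 20 CPM were not alike. Library 86, labelled mutant 2-cell, had 5889 CPM of granulosa markers and 8280 CPM of oviduct markers, and held 8 of the 9 members. Timp1 stood there at 2414 CPM, above all 40 oocyte-like libraries, Serpine2 at 1463 CPM, Tnfaip6 at 184 CPM and Vcan at 115 CPM. The other 4 were lower, with Col4a1 at 36.2 CPM, Thbs1 at 27.4 CPM, Ptx3 at 13.5 CPM and Col4a2 at 11.4 CPM.

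Per 100 granulosa marker counts library 86 held 41.0 Timp1 counts (39.7 to 42.3) and 24.8 Serpine2 counts (23.9 to 25.8). It held 1.95 Vcan counts (1.72 to 2.19) and 0.615 Col4a1 counts (0.492 to 0.760), less than the high-granulosa oocyte-like libraries with 12.7 and 4.38. The low-granulosa libraries had 2.25 Vcan counts (1.69 to 2.94), an interval that overlaps that of library 86. Of the 55 Vcan counts behind that value, 48 came from library 24. The intervals of library 86 are of 1 library, and all of them leave out the spread between libraries.

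Library 58, labelled wild-type 2-cell, had 1203 CPM of granulosa and 5476 CPM of oviduct markers. Timp1 was 1023 CPM, Serpine2 640 CPM, Vcan 186 CPM and Thbs1 168 CPM, and the other 5 members had no count among 167079. In library 13, labelled wild-type MII, no member had a count although granulosa markers summed to 468 CPM, and its oviduct markers summed to 18937 CPM. Library 82, labelled mutant 2-cell, had no count of any member or granulosa marker, while its oocyte list summed to 6864 CPM. Its list of 2-cell embryo genes summed to 1301 CPM, where libraries 13, 58 and 86 had 0. It is thus unlike those libraries, but it is part of the low-Gdf9 pool below. Its stroma and oviduct lists were at 0, and its leukocyte list summed to 1138 CPM, above the oocyte-like maximum of 422 CPM.

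Against the oocyte-like class, the pooled low-Gdf9 level was 6.55-fold higher for Timp1 (6.37 to 6.74) and 3.79-fold lower for Col4a2 (2.60 to 5.76), in a comparison where 31.8% of genes passed 2-fold upward and 47.7% downward. Those pools are ruled by library 86. Without it Timp1 was 138 CPM in place of 1634 CPM, lower than the oocyte-like pool, and Tnfaip6, Ptx3, Col4a1 and Col4a2 had no count. Without library 61 Col4a2 was 1.75-fold lower. Serpine2 was 1.25-fold higher (1.21 to 1.30), a log2 ratio of 0.33 that turned to -0.79 with TMM factors and -0.98 with DESeq2 size factors. Without library 86 it was 0.109 of the oocyte-like level. Vcan, Thbs1, Ptx3 and Col4a1 were 1.29-, 1.39-, 1.59- and 1.74-fold lower, and all 4 were higher than in the oocyte-like pool once library 61 was left out. Without library 86 Vcan was 4.33-fold lower, and Ptx3 and Col4a1, then without a count, were at least 5.82- and 17.1-fold lower by the floor of 3 counts. Tnfaip6 was 2.65-fold higher, from library 86 alone.

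The labels were set beside the classes only to see whether 1 label carried the pattern. Labels and stage RNA often disagreed, as the class counts in the opening show, so a label may not give the origin of a library, and medians by label are no comparison of genotypes. Among oocyte-like libraries Serpine2 had a median of 718 CPM under wild-type MII (534 to 917, 12 libraries), 782 CPM under wild-type 2-cell (277 to 2015, 15 libraries) and 636 CPM under mutant 2-cell (475 to 1808, 9 libraries). Under the negative control label it was 669 CPM (492 to 1410, 4 libraries). The 4 ranges overlapped. Timp1 medians were 24.3, 161, 10.4 and 25.4 CPM in the same order, and granulosa medians were 191, 477, 171 and 114 CPM. In the 2-cell-like class Serpine2 medians were 26.7 CPM under wild-type MII, 47.2 CPM under mutant MII and 80.6 CPM under mutant 2-cell. The highest was 115 CPM under the negative control label (96.2 to 134, 2 libraries). These ranges overlapped. No oocyte-like library carried the mutant MII label and no 2-cell-like library the wild-type 2-cell label, so these label and class pairs cannot be compared. The Serpine2 gap between the classes was also present within single labels. It was 534 to 917 CPM against at most 97.0 CPM under wild-type MII, and 475 to 1808 CPM against at most 263 CPM under mutant 2-cell.

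Partner genes were taken from 4 lists, written with earlier results of these data known. Of 19 partners of the hyaluronan gel (inter-alpha-trypsin inhibitor chains, link proteins, other synthases, hyaluronidases and versican-cutting enzymes), 3 reached 10 CPM in the oocyte-like pool and none of the 3 had a rho of 0.5. Over all genes past the filter 21.3% had such a rho. Partners under 10 CPM were not counted, and those given next were named after their values were seen. Adamts1, Adamts9 and Cd44 did reach a rho of 0.5, at 0.585 (Cd44) to 0.706 (Adamts1). The other partners under 10 CPM stayed below 0.5 or had no rho. Of 4 partners compared between classes 1 was lower and 1 higher by 2-fold in the 2-cell-like class, against 28.4% and 20.4% of all genes. Has3, another hyaluronan synthase, was at 31.4 CPM with a count in all 40 oocyte-like libraries and at 24.8 CPM in the 2-cell-like pool, with a rho of -0.428. The versican-cutting enzyme Adamts4 was at 22.4 CPM with a count in 39 of 40 libraries (rho 0.330). Hyal2 was at 21.6 CPM.

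Of 15 signals of cumulus expansion, 6 were compared between classes, and 4 were at least 2-fold lower and none higher in the 2-cell-like class, against 28.4% and 20.4% of all genes. A rho of at least 0.5 was reached by 3 of 6, against 21.3%. Signals under 10 CPM were not counted, and those given next were named after their values were seen. Sult1e1 (0.815), Ereg (0.708), Btc (0.692), Ptges (0.597), Il6 (0.572) and Pgr (0.527) reached it too. Areg (0.449) and Ptger2 (0.425) did not. Lhcgr (0.658) is itself in the granulosa list. The oocyte factors Gdf9 (7377 CPM; rho -0.129) and Bmp15 (3914 CPM; rho -0.491) were the most abundant, and Gdf9 was used to sort the libraries. Ptgs2, the prostaglandin synthase of expanding cumulus, was at 32.0 CPM with a rho of 0.910 and at 0.952 CPM in the 2-cell-like pool.

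Of 32 basement membrane and adhesion genes, 22 passed the filter in the oocyte-like class and 15 of them had a rho of at least 0.5, with a median of 0.658. Between classes 18 of 23 were at least 2-fold lower and 1 higher in the 2-cell-like class. Over all genes the shares were 21.3% for rho, 28.4% lower and 20.4% higher. The laminin chain Lamb1 was the most abundant, at 2951 CPM with a rho of -0.385, and the collagen-modifying P4hb (1009 CPM) and the syndecan Sdc1 (713 CPM) had 0.673 and 0.711. In the low-Gdf9 pool Lamb1 was at 35.2 CPM and Sparc, a collagen-binding matrix protein, at 349 CPM.

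Of 17 proteases and inhibitors, 7 passed the filter in the oocyte-like class and 4 had a rho of at least 0.5, against 21.3% of all genes. Between classes 5 of 7 were at least 2-fold lower and 1 higher, against 28.4% and 20.4%. The higher one was Mmp2, a gelatinase, at 131 CPM in the 2-cell-like pool against 30.4 CPM, named after its values were seen. Plat, the tissue plasminogen activator of the egg, stood at 4206 CPM with a rho of -0.239 and was 63.6-fold lower in the 2-cell-like class. The inhibitor Serpinb6a was at 90.3 CPM and Cd63, a surface partner of Timp1, at 68.5 CPM. Their rho was 0.885 and 0.872. In the low-Gdf9 pool Serpinb6a was at 463 CPM, Cd63 at 380 CPM and Mmp11, a matrix metalloproteinase, at 285 CPM.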

How the data were processed

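Polyadenylated RNA of single oocytes and blastomeres was captured, amplified with template switching and made into libraries with a Nextera kit, per the labels' protocols. The submitters' processing notes list Trim Galore 0.4.4, HISAT2 2.1.0, DESeq2 and the build GRCm39, without their roles. The counting tool and annotation are not given in the sources used here. The deposited table holds raw whole-number counts per gene, with 48 repeated symbols summed here. CPM used all gene counts of a library. Level intervals are exact Poisson and ratio intervals exact conditional binomial, both 95%. A class with no count was set to 3 counts over the class. Genes were compared at 10 CPM or more in a class and a count in at least 50% of the libraries of the higher class. No test was run, since single cells are not replicates and the labels name no animal. The calculations were checked on simulated data. Python 3.11.15, pandas 2.3.3, scipy 1.17.1 and, for the alternatives, edgeR 4.0.16 and DESeq2 1.42.0 were used. Exon lengths and overlaps came from GENCODE M21 on GRCm38. The members, gene lists and naming rule (all members, the leading genes of each list, and the genes most alike to each member) were chosen with earlier results of these data known. Alternatives changed the count and class thresholds, scaling, depth, filter, marker list and libraries; 4 of the 21 were chosen after seeing the data.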

Additional observations from a re-analysis of the deposited data

Results flagged for a closer look

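A level far from the others of its class and label was looked for for 30 combinations of a member with a set of 4 to 9 libraries, and 22 met the rule. Chance marks about 1 in 20 for evenly spread values, which does not hold for counts with many at 0. In 9 of the 22 all other libraries were at 0, so that any single count met it. Library 87, labelled mutant 2-cell and rich in granulosa RNA (4458 CPM), stood apart from the other 8 oocyte-like libraries of that label for 8 members. Vcan was 469 CPM with the next library at 28.2 CPM, Tnfaip6 150 (22.6), Ptx3 19.1 (1.28), Thbs1 72.2 (12.0), Col4a1 84.2 (16.9), Col4a2 73.6 (12.4), Timp1 674 (87.7) and Serpine2 1808 CPM (720). In the same set Has2 was 1.10 CPM in library 84 and 0 in the others.

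Among the 4 oocyte-like libraries labelled negative control, library 23, with 4043 CPM of granulosa markers, stood apart for Vcan (340 CPM), Tnfaip6 (299 CPM), Col4a1 (101 CPM) and Timp1 (1016 CPM). Library 96 was the one of them with Col4a2 counts, at 7.68 CPM. Among the 8 2-cell-like libraries labelled wild-type MII, library 3 had Vcan at 1.74 CPM and Timp1 at 0.580 CPM, and library 4 had Has2 at 6.77 CPM, where the others had 0.

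Among the 4 libraries low in Gdf9, library 86 stood apart for Tnfaip6 (184 CPM), Ptx3 (13.5 CPM), Col4a1 (36.2 CPM) and Col4a2 (11.4 CPM), and library 58 for Thbs1 (168 CPM). Of the 11 libraries under the minimum of 100000 counts, which enter no class, library 66 held 66 member counts and library 15 held 19, against none in the other 9 of them.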

How the results depend on the processing

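Without the filter on low levels, 9202 genes were higher and 6700 lower in the 2-cell-like class, and 10609 and 6526 in the low-Gdf9 libraries, with 1 member higher in the former and 2 in the latter. For the low-Gdf9 libraries the count of higher genes was 1430 with DESeq2 size factors, 1624 with TMM factors, 4644 with at least 4000 genes, 4499 with at least 500000 counts and 1239 without the richest granulosa library of each class. Higher members there were 2 with Mos at 300 CPM, at least 4000 genes, at least 500000 counts or library 61 left out, and 0 without the richest libraries. Lower members were 4 with either scaling, 2 with per-library means or thinning, 5 without the richest libraries and 0 with Mos at 300 CPM or library 61 left out. Without the richest libraries the log2 ratio turned from 2.71 to -0.34 for Timp1 and from 1.41 to -3.55 for Tnfaip6 (-0.025 with per-library means). Genes with a rho of 0.5 in the 2-cell-like class numbered 0 with Hsd3b1 alone, 83 with Mos at 30 CPM, 28 with Zfp352 at 10 CPM, 14 with 4000 genes, 12 with the reduced marker list and 10 thinned. In the oocyte-like class they numbered 990 thinned. Members with a count in at least 50% of the low-granulosa libraries were 5 in the oocyte-like class, 1 when thinned (Serpine2), and 2 in place of 1 in the 2-cell-like class with Hsd3b1 alone. Hsd3b1 had a count in 1 of 41 2-cell-like libraries, and the other 40 tie at 0. Neither value with Hsd3b1 alone in that class thus measures granulosa RNA. The cause of the other changes was not tested. The other 304 values of these counts moved by less than 1.5 times. TMM and DESeq2 factors moved the median log2 ratio of all genes by -0.20 and -0.14 for the 2-cell-like class and by -1.11 and -1.31 for the low-Gdf9 libraries. In the 2-cell-like comparison the log2 ratio of Col4a1 was -4.91 with Zfp352 at 10 CPM in place of -3.75, and that of Has2 2.99 with per-library means in place of 2.32. Serpine2 stayed between -3.91 and -3.60 on the log2 scale in the 2-cell-like comparison under all 21 alternatives. No paired analysis was possible because library numbers are not shared between groups. Depth limits single libraries: 3 counts are 0.521 to 18.5 CPM in the oocyte-like class.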
